A study of Homo sapiens with 16 samples.

Results

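Germ cell and piRNA pathway genes were read in PC3 cells, an established human prostate cancer line, of DDX4-null and control genotype. The set was a list of 33 genes, given by name with no threshold on a measured value but with earlier results of these data known. The count table holds 20356 genes, and all 33 matched 1 Ensembl ID. The study asked how DDX4 acts on cancer-related properties of PC3 cells. It has 4 groups of 4 libraries: DDX4-null xenograft tumors, control xenograft tumors, DDX4-null monolayer cells and control monolayer cells. The design calls the controls wild type, and all 4 groups share the PC3 background. The labels do not name the method that made the null, the number of clones, or the host animal of the tumors. Nor do they tie libraries to separate cultures or animals, so each p-value reflects the variation among the libraries at hand, and that variation may be technical.

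PIWI proteins are Argonaute-family proteins of the germ line that carry short piRNAs and silence transposons. DDX4, the human vasa homologue, is an RNA helicase of the germ granule, the cytoplasmic structure in which piRNA precursors are processed. Tudor-domain proteins bind methylated arginines of PIWI proteins and hold the granule together, and several of the biogenesis factors sit on the outer membrane of mitochondria. In adults, most of these genes are known for expression in testis or ovary, and some are switched on in tumors.

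Library totals ran from 12204254 to 25443952 counts, and the floor used here was 3 counts per library, which corresponds to 0.110 to 0.265 CPM. A CPM is 1 count in a library of 1000000, and CPM were TMM-scaled over all 16 libraries. A gene was taken to be above the floor in a group when each of its 4 libraries had more than 3 counts. The 7 epithelial markers were above the floor in every group. Of the prostate luminal markers, KLK2 had no count in any library and KLK3 had 4 counts over all 16. The 6 fibroblast markers summed to 1650 to 10900 CPM in DDX4-null tumors, 1380 to 1880 in control tumors, 35.6 to 48.9 in DDX4-null cells and 23.7 to 31.4 in control cells. The highest value was that of DDX4-null tumor replicate 1, and the other 3 libraries of its group reached at most 1900 CPM. The 5 Sertoli and Leydig cell markers, which stand for the somatic cells of the testis, summed to 11.8 to 20.9 CPM in DDX4-null tumors, 8.87 to 11.6 in control tumors, 3.66 to 6.5 in DDX4-null cells and 3.26 to 6.6 in control cells, most of it from AMH. In bulk libraries, fewer cells of a type and less RNA per cell cannot be told apart, and host reads may be counted on human genes in the tumors.

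Of the 33 genes, 10 were above the floor in all 4 groups. They were the RNA-binding gene NANOS3, the PIWI genes PIWIL2 and PIWIL4, the Tudor-domain genes TDRD6, TDRD7 and TDRKH, the biogenesis genes MOV10L1 and PLD6, the synaptonemal complex gene SYCP2, and TEX14, a gene of the germ cell intercellular bridge. HORMAD2 was above the floor in control tumors and control cells, and in neither DDX4-null group. The other 22 genes were above the floor in no group. Of these, BOLL, PIWIL3, TDRD1 and HORMAD1 had no count in any of the 16 libraries. DAZL, NANOS2, PIWIL1, RNF17, GPAT2, HENMT1, GTSF1, SYCP1 and STRA8 had 1 to 3 counts over all 16 libraries together. DDX4, TDRD5, TDRD9, TDRD12, STK31, MAEL, ASZ1, SYCP3 and TEX101 had 4 or more counts in all. None of the 22 genes was above the floor in all 4 libraries of a group at this depth. DDX4, TDRD9, TDRD12 and STK31 each reached 5 counts in a single library or more, so some reads were assigned to these genes. Each of them overlaps a gene or pseudogene on the opposite strand. The strand setting of the counting is not given, so these few reads might not be their own.

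**Figure D1:**
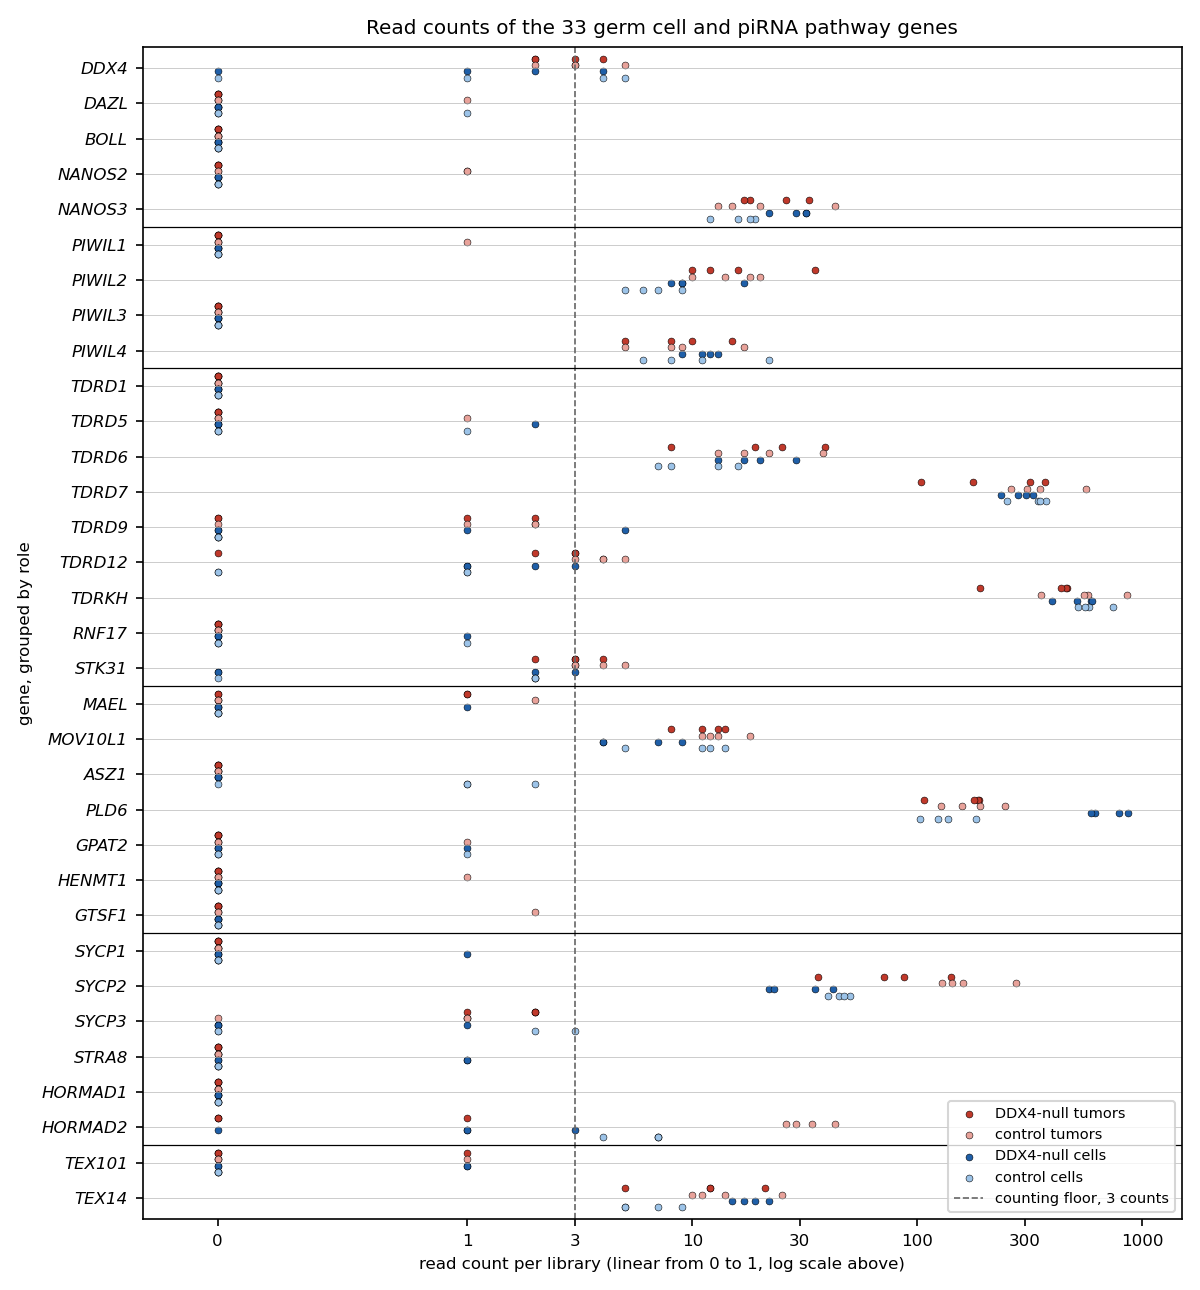
Read counts of the 33 genes in each of the 16 libraries, on an axis that is linear from 0 to 1 and logarithmic above, with horizontal lines between roles and a dashed line at the floor of 3 counts. The genes split into 11 with at least 1 group fully to the right of the floor and 22 without, and HORMAD2 is the gene whose 2 DDX4-null groups stay at or left of the floor while its 2 control groups lie to the right.

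The RNA of the set came mostly from 3 genes. TDRKH, TDRD7 and PLD6 together held 78.0% to 82.8% of the set's summed CPM in DDX4-null tumors and 73.4% to 80.9% in control tumors. In DDX4-null cells they held 89.1% to 93.4%, and in control cells 88.5% to 91.0%. The other 30 genes summed to 6.39 to 18.9 CPM over the 16 libraries. On the scale of CPM per kb of exon, the level in control cells was 7.49 for TDRKH, 4.86 for TDRD7, 3.40 for PLD6 and 1.07 for NANOS3. SYCP2 followed with 0.451 CPM per kb, and PIWIL4, HORMAD2, MOV10L1, TDRD6, TEX14 and PIWIL2 had 0.0742 to 0.169.

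**Figure D2:**
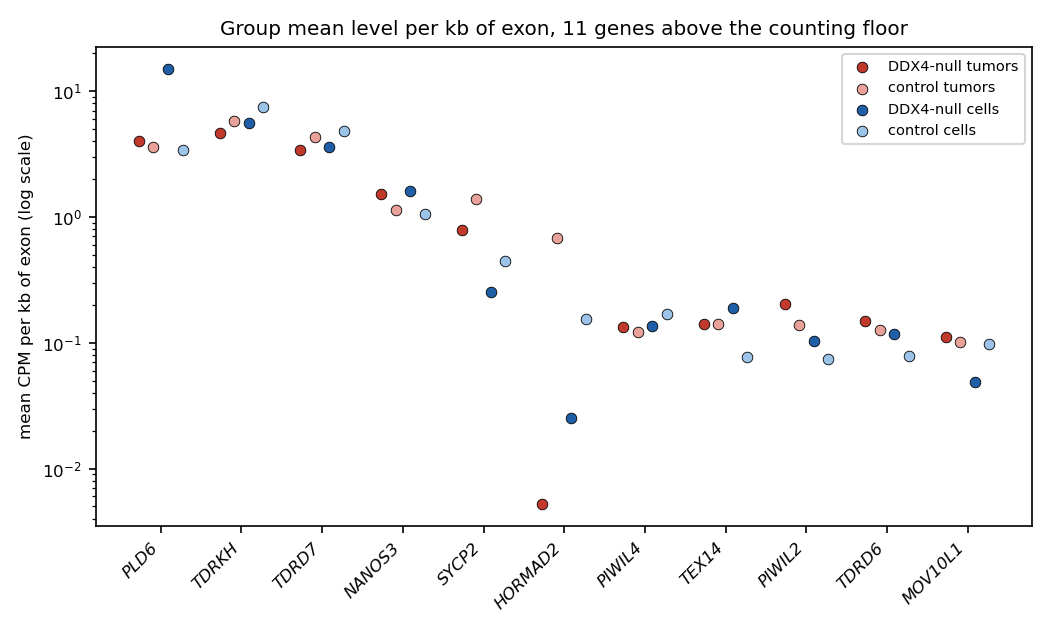
Mean CPM per kb of exon (log scale, n = 4 libraries per point) of the 11 genes above the floor in at least 1 group, for DDX4-null tumors, control tumors, DDX4-null cells and control cells. PLD6 in DDX4-null cells is the highest point at 15.1 CPM per kb, and HORMAD2 in DDX4-null tumors is the lowest, from 1 count.

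DDX4 itself, the gene named by the labels, was near the floor in all groups. DDX4-null tumors held 3, 2, 2 and 4 DDX4 counts and control tumors 5, 2, 3 and 3. DDX4-null cells held 2, 4, 0 and 1 counts and control cells 0, 4, 1 and 5. The groups overlapped in both settings, and the sums were 11 counts in DDX4-null tumors against 13 in control tumors, and 7 in DDX4-null cells against 10 in control cells. The difference of mean log2(CPM + 0.5) was 0.0094 in tumors (exact two-sided permutation p = 0.971) and -0.14 in monolayer (exact two-sided permutation p = 0.543), where 4 libraries against 4 allow no p below 0.0286. The ratio of summed CPM, DDX4-null over control, was 1.05 in tumors with a 95% counting interval of 0.425 to 2.53, and 0.595 in monolayer with an interval of 0.192 to 1.73. The DDX4 counts therefore do not separate the labelled groups, and they check neither label. DDX4 also overlaps the protein-coding gene SLC38A9 on the opposite strand, so some of these few reads might belong to SLC38A9.

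In tumors, the DDX4-null libraries had almost no HORMAD2 RNA, and no other gene of the set passed the test. HORMAD2 encodes a HORMA-domain protein of the meiotic chromosome axis that takes part in the surveillance of unsynapsed chromosomes. DDX4-null tumors held 0, 1, 0 and 0 HORMAD2 counts, and control tumors held 26, 34, 29 and 43. The groups did not overlap, and the control tumors averaged 1.77 ± 0.493 CPM (SD, n = 4). HORMAD2 fell to 1 count in DDX4-null tumors, against 132 in control tumors, and summed CPM was 107-fold lower with a 95% counting interval of 18.8-fold to 4243-fold. The fitted log2 change was -6.26 ± 0.62 (SE), with an adjusted p of 0.0021 in edgeR's quasi-likelihood test. This SE was worked back from the test and does not carry the width of the counting interval, so the size of the fall is uncertain. HORMAD2 stayed called under all 16 alternatives, with a highest adjusted p of 0.018. HORMAD2 passed the filter on low counts through the control tumors alone. In this comparison 2.09% of the 12942 genes tested were called, 1.10% lower and 0.981% higher, and 1 of the 10 tested genes of the set. HORMAD2 was called with any 1 library left out, but the count of 270 genes called over all genes moved. It was 26 without control tumor replicate 3, 47 without control tumor replicate 2, 134 without control tumor replicate 1 and 129 without DDX4-null tumor replicate 2 or 3. HORMAD2 and SYCP2 were the 2 of the 10 with an unadjusted p under 0.05, and also the 2 called by DESeq2.

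In monolayer, HORMAD2 was also lower in the DDX4-null libraries, at counts too low for the main filter. DDX4-null cells held 0, 1, 1 and 3 counts and control cells 7, 4, 7 and 7. The groups did not overlap, and summed CPM was 5.88-fold lower with a 95% counting interval of 2.21-fold to 19.7-fold. With no filter on low counts, edgeR gave -2.45 ± 0.65 (SE) on the log2 scale and an adjusted p of 0.0013, in a fit that called 56.7% of the 17068 genes tested. HORMAD2 has an antisense gene, HORMAD2-AS1, on the opposite strand. The library kit keeps strand, but no source used here gives the strand setting of the counting, so reads of the pair might not be told apart.

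The 10 tested genes nearest to HORMAD2 on chromosome 22, 5 on each side, were looked at after its values were seen. In tumors 0 of the 10 were called by edgeR and 0 by DESeq2, 1 had an unadjusted p under 0.05, and their log2 changes ran from -0.15 to 0.65 with a median of -0.059. In monolayer 5 of the 10 rose and 2 fell, with a median of 0.44, beside 35.0% higher and 32.3% lower over all genes. The 2 that fell were the flanking genes on both sides, MTMR3, a phosphoinositide phosphatase, at -0.55 ± 0.096 (SE), and LIF, an interleukin-6 family cytokine, at -1.30 ± 0.10 (SE). In control tumors against control cells, both flanking genes were also lower, at -0.32 for MTMR3 and -0.95 for LIF on the log2 scale, while HORMAD2 was higher there.

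**Figure D3:**
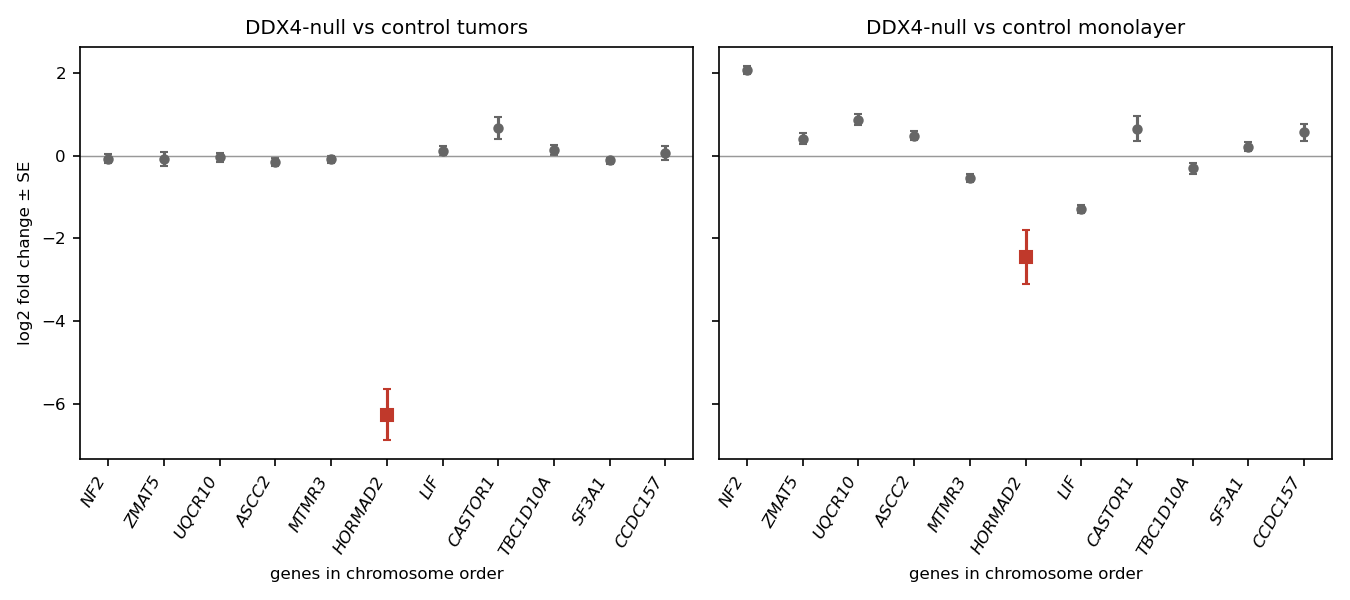
Log2 fold change (± SE), DDX4-null over control, of HORMAD2 (red square) and of the 5 tested genes on each side of it in chromosome order (grey circles), in tumors and in monolayer. In tumors HORMAD2 stands at -6.26 and its neighbours between -0.15 and 0.65, and in monolayer the neighbours range from -1.30 to 2.07 (HORMAD2 there from the fit with no filter).

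SYCP2, a lateral element protein of the synaptonemal complex that holds paired meiotic chromosomes, was lower in DDX4-null libraries by about the same factor in both settings. DDX4-null cells held 1.18, 2.07, 1.40 and 1.95 CPM and control cells 2.98, 2.87, 2.76 and 3.04. The monolayer groups did not overlap, and the change was -0.81 ± 0.20 (SE) on the log2 scale with an edgeR adjusted p of 0.0015, which held under all 16 alternatives. DDX4-null tumors held 3.18, 7.62, 4.98 and 4.42 CPM and control tumors 10.02, 7.53, 10.04 and 8.06. The tumor groups overlapped through DDX4-null replicate 2. The change in tumors was -0.80 ± 0.24 (SE), with an adjusted p of 0.10 in edgeR, so it did not pass. It passed in DESeq2 (adjusted p = 0.023), in the model of all 16 libraries (0.028 in edgeR) and without DDX4-null replicate 2 (0.045 in edgeR). Both changes differed by 0.016 ± 0.29 (SE) on the log2 scale, with an adjusted p of 0.97 in edgeR, which does not show that they are equal. That difference ran from -0.25 to 0.30 over its alternatives, and its sign varied among them. The median log2 change of all tested genes of chromosome 20, where SYCP2 lies, was -0.19 in tumors and 0.094 in monolayer. The 10 tested genes nearest to SYCP2 had log2 changes of -1.17 to -0.046 in tumors, with a median of -0.25, all below 0. Of these 10, 0 were called by edgeR in tumors, 1 was called by DESeq2, and 5 had an unadjusted p under 0.05. In monolayer the median of the nearest 10 was -0.082, and 1 rose and 2 fell, beside 35.0% higher and 32.3% lower over all genes.

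Windows before the listed starts of HORMAD2 and SYCP2 are shown because these were the meiosis genes above the floor. Both were lower in DDX4-null libraries, though SYCP2 did not pass the edgeR test in tumors. Each line gives the 250 bases before the start listed by RefSeq on GRCh38.p14, read on the gene's strand, with CpG dinucleotides in capitals. The listed HORMAD2 start lies 290 bases inside the gene start of GENCODE v29, and that of SYCP2 lies 18 bases inside. The HORMAD2 window thus lies wholly within the annotated gene and may not be the promoter. HORMAD2 is at chr22:30080214-30080463 on the plus strand, and SYCP2 is at chr20:59933638-59933887 on the minus strand.
HORMAD2: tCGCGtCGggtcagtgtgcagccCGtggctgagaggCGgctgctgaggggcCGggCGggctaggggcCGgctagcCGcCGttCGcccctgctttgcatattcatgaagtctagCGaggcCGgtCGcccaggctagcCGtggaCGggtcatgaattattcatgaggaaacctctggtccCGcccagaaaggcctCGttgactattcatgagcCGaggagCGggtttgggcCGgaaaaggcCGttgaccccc
SYCP2: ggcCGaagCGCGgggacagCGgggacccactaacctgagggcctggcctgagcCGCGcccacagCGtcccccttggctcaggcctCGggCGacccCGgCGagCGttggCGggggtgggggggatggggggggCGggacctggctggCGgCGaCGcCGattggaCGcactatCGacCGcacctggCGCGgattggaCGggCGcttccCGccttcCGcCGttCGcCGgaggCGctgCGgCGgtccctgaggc
The HORMAD2 window holds 22 CpG dinucleotides at a GC content of 64.4%, and the SYCP2 window holds 33 at 76.4%. A full window was found for 27 of the 33 genes, and their median was 19 CpG dinucleotides. Over the 27305 genes of the promoter list, at the first start of each, it was 11. That list is larger than the 20356 genes of the count table, so it is not matched to the genes counted. The median was 22 for the 7 genes above the floor in a group and 17 for the 20 above it in none. For 4 of the 20, DDX4, DAZL, GPAT2 and TEX101, the listed start lies more than 1000 bases from the gene start of GENCODE v29, and the window may not be the promoter. The median of the other 16 was 19. The windows of BOLL, ASZ1 and TDRKH, with starts 556, 630 and 916 bases inside, also lie wholly within the annotated gene. Windows were searched on both strands for CACGTG, the E-box letters bound by MAX and MYC family factors, and for GGCGGGAA, an E2F-type motif. CACGTG was in none of the printed windows and in 3 of the 27, those of TDRD1, TDRD12 and STK31, against 6.49% of the promoter list. GGCGGGAA was in the SYCP2 window alone of the 27, against 2.77% of the promoter list.

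PLD6 was the gene of the set with the largest rise in DDX4-null monolayer cells. It encodes a phospholipase D family protein of the mitochondrial outer membrane, known in mouse and fly as the zucchini nuclease that cuts piRNA precursors. PLD6 stood at 42.1, 36.2, 35.9 and 40.1 CPM in DDX4-null cells, against 8.21, 9.83, 10.1 and 6.66 CPM in control cells. The groups were far apart, and the change was 2.15 ± 0.13 (SE) on the log2 scale, 4.43-fold, with an edgeR adjusted p of 3e-11. In tumors the DDX4-null libraries held 9.46, 10.1, 10.6 and 11.1 CPM and the control libraries 8.90, 9.30, 8.91 and 9.58. The tumor groups overlapped by 1 library, and the change of 0.17 ± 0.12 (SE) did not pass (adjusted p = 0.41 in edgeR). The genotype effect in tumors minus that in monolayer was -1.97 ± 0.17 (SE) with an adjusted p of 1.1e-08, in a fit that called 52.8% of 13603 genes. PLD6 lies on chromosome 17, and 8 of its 10 nearest tested genes also rose in monolayer, beside 35.0% called higher over all genes. Their median was 0.61, and the median of the whole chromosome was 0.24. The nearest genes on one side, FLCN at -0.20 ± 0.11 (SE) and COPS3 at 0.13 ± 0.10 (SE), were not called. MPRIP, which overlaps PLD6 on the opposite strand, held 841 to 1150 CPM in DDX4-null cells and 457 to 616 in control cells. It rose by 0.94 ± 0.12 (SE) in monolayer and stood at -0.11 ± 0.094 in tumors, and since the strand setting is not given, reads of this pair might not be told apart either.

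The other biogenesis gene above the floor was MOV10L1, an RNA helicase that feeds piRNA precursors into processing. It held 7, 9, 4 and 4 counts in DDX4-null cells and 5, 12, 11 and 14 in control cells, which overlap. It was not tested with the main filter in monolayer, and with no filter it was called lower at -1.04 ± 0.43 (SE), with an edgeR adjusted p of 0.035. It was called in 3 of the 4 fits that tested it, and not without DDX4-null cell replicate 3 (adjusted p = 0.071 in edgeR). In tumors it averaged 0.759 ± 0.281 CPM in DDX4-null libraries and 0.698 ± 0.0535 in controls (SD, n = 4 each), with a log2 change of 0.089 ± 0.31 (SE). Of the rest, MAEL, GPAT2, HENMT1 and GTSF1 never passed 2 counts in a library. ASZ1, a scaffold of the mitochondrial granule, had 4 counts in control cells and 0 in the other 3 groups.

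The Tudor-domain genes TDRKH and TDRD7 were both slightly lower in DDX4-null monolayer cells. TDRKH tethers PIWI proteins to mitochondria, and it averaged 28.5 ± 3.72 CPM in DDX4-null cells and 38.1 ± 2.10 in control cells (SD, n = 4 each), without overlap. Its change was -0.42 ± 0.11 (SE) on the log2 scale with an edgeR adjusted p of 0.0024. OAZ3 and TDRKH-AS1 overlap TDRKH on the opposite strand, so some of its reads might be theirs, and OAZ3 held 1.02 to 1.61 CPM in DDX4-null cells and 0.718 to 1.55 in control cells. TDRD7, a granule protein also known for its role in the lens, averaged 15.6 ± 1.35 CPM in DDX4-null cells and 21.0 ± 2.29 in control cells (SD, n = 4 each), without overlap. Its change was -0.43 ± 0.12 (SE) with an edgeR adjusted p of 0.0032. The median log2 change was -0.11 over chromosome 1, where TDRKH lies, and 0.20 over chromosome 9, where TDRD7 lies.

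In tumors neither gene passed. TDRKH held 16.7, 24.98, 26.3 and 27.2 CPM in DDX4-null tumors and 24.9, 33.9, 31.1 and 28.0 in control tumors, a change of -0.31 ± 0.15 (SE) with an edgeR adjusted p of 0.27. TDRD7 averaged 14.6 ± 5.30 CPM in DDX4-null tumors and 18.8 ± 2.43 in control tumors (SD, n = 4 each), a change of -0.35 ± 0.22 (SE) with an edgeR adjusted p of 0.38. The lowest DDX4-null value of TDRKH, TDRD7 and SYCP2 was that of replicate 1, the library with the highest fibroblast markers. Without that library the changes were -0.17 for TDRKH, -0.18 for TDRD7 and -0.64 for SYCP2 on the log2 scale, and none was called. The part of the fibroblast markers in these values was not tested.

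TDRD6, a large protein of the chromatoid body of spermatids, averaged 1.36 ± 0.584 CPM in DDX4-null tumors, 1.15 ± 0.397 in control tumors, 1.06 ± 0.275 in DDX4-null cells and 0.712 ± 0.311 in control cells (SD, n = 4 each). It passed in neither genotype comparison, at 0.28 ± 0.36 (SE) in tumors and 0.60 ± 0.31 in monolayer (edgeR adjusted p = 0.68 and 0.0995). The other 6 Tudor-domain genes were above the floor in no group. The largest count among them was 5 in a library, reached by TDRD9, TDRD12 and STK31. TDRD9, a helicase that acts with PIWI proteins, had 6 counts in DDX4-null cells, 5 of them in replicate 1, and 0 in control cells. STK31 had 12 counts in DDX4-null tumors, 15 in control tumors, 5 in DDX4-null cells and 6 in control cells.

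Both PIWI genes above the floor stayed at or below 2.00 CPM in every library. PIWIL2 held 1.41, 0.541, 2.00 and 0.747 CPM in DDX4-null tumors and 0.701, 1.06, 0.730 and 0.709 in control tumors. The tumor groups overlapped, and the change of 0.54 ± 0.40 (SE) did not pass (adjusted p = 0.46 in edgeR). PIWIL2 held 0.483, 1.00, 0.485 and 0.417 CPM in DDX4-null cells and 0.464, 0.359, 0.497 and 0.388 in control cells. These monolayer groups overlapped too, and PIWIL2 was not tested there with the main filter. PIWIL4 held 0.311 to 0.859 CPM in DDX4-null tumors, 0.292 to 1.19 in control tumors, 0.510 to 0.768 in DDX4-null cells and 0.331 to 1.46 in control cells. Its monolayer change was -0.30 ± 0.38 (SE), with an edgeR adjusted p of 0.50. The gene body of PIWIL4 overlaps that of FUT4 on the same strand in GENCODE v29, so its few counts are uncertain.

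NANOS3, an RNA-binding repressor that protects primordial germ cells, held 1.18, 1.89, 1.94 and 1.34 CPM in DDX4-null cells and 1.26, 1.29, 0.884 and 0.776 in control cells. The groups overlapped, and the change of 0.59 ± 0.26 (SE) passed narrowly with an edgeR adjusted p of 0.049. It was called in 6 of the 16 alternatives, whose adjusted p ran from 0.027 to 0.14. In tumors the change was 0.39 ± 0.31 (SE) and did not pass. TEX14, which keeps the intercellular bridges of dividing germ cells open, held 1.18, 1.12, 0.910 and 0.788 CPM in DDX4-null cells and 0.331, 0.502, 0.497 and 0.323 in control cells, without overlap. Its change was 1.24 ± 0.31 (SE) with an edgeR adjusted p of 0.0015, from 73 counts in DDX4-null cells and 26 in control cells. TEX14 passed the filter on low counts there through the DDX4-null cells alone. In tumors TEX14 averaged 0.753 ± 0.287 CPM in DDX4-null libraries and 0.745 ± 0.135 in controls (SD, n = 4 each). Like PLD6, TEX14 lies on chromosome 17, and 7 of its 10 nearest tested genes rose in monolayer and 2 fell. Over all genes tested there, 35.0% were called higher and 32.3% lower.

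**Figure D4:**
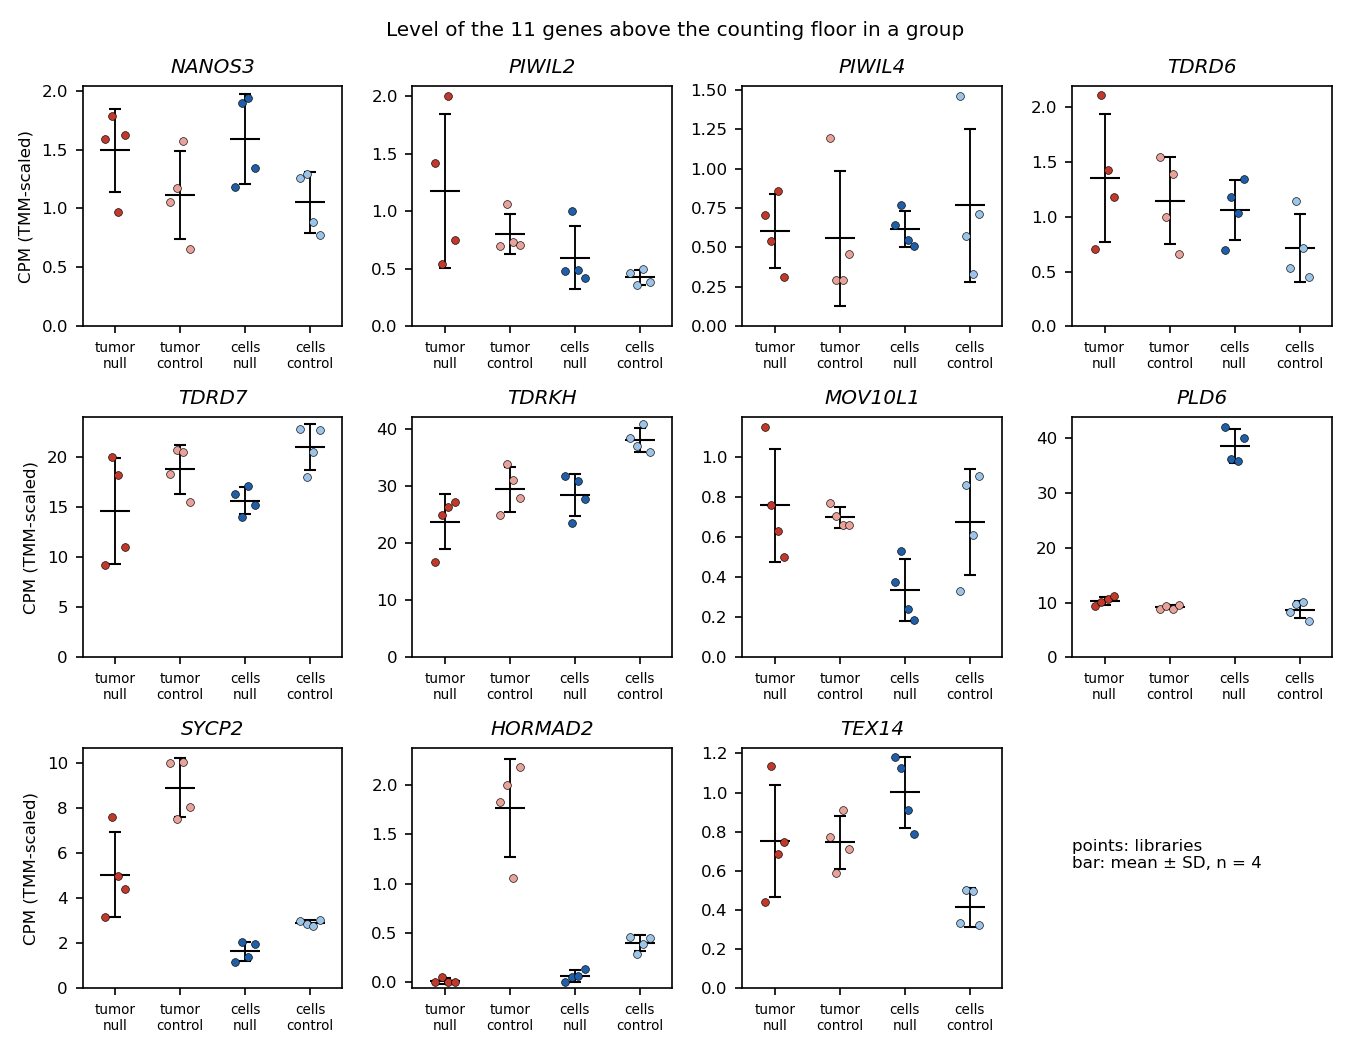
TMM-scaled CPM of the 11 genes above the floor in at least 1 group, with 1 point per library and the mean ± SD of 4 libraries, for tumors (DDX4-null, control) and monolayer cells (DDX4-null, control). PLD6 is at 35.9 to 42.1 CPM in DDX4-null cells and at or below 11.1 CPM in the other 3 groups, while HORMAD2 is at or near 0 in both DDX4-null groups.

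Over the set, 8 genes were tested in monolayer, of which NANOS3, PLD6 and TEX14 rose and SYCP2, TDRD7 and TDRKH fell. Over all 13006 genes tested there, 67.3% were called, 35.0% higher and 32.3% lower, so 6 of 8 is close to the background and is no result about the set. The median log2 change of the 8 genes was 0.15, against 0.021 over all genes tested. In tumors the median of the 10 tested genes was 0.063, against -0.0006 over all genes tested.

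Control tumors held more RNA of both meiosis genes above the floor, SYCP2 and HORMAD2, than control cells. In this comparison 64.9% of 12858 genes were called, 33.9% higher and 31.0% lower, and 5 of the 10 tested genes of the set were called, 4 higher and 1 lower. SYCP2 averaged 8.91 ± 1.31 CPM in control tumors and 2.91 ± 0.123 in control cells (SD, n = 4 each), without overlap, a log2 change of 1.62 ± 0.15 (SE) with an edgeR adjusted p of 9.8e-08. HORMAD2 averaged 1.77 ± 0.493 CPM in control tumors and 0.398 ± 0.0811 in control cells (SD, n = 4 each), without overlap. Its change was 2.10 ± 0.32 (SE) with an edgeR adjusted p of 2.5e-05. Both calls held under all 16 alternatives. PIWIL2 at 0.88 ± 0.31 (SE) and TEX14 at 0.86 ± 0.32 (SE) were called with edgeR adjusted p values of 0.021 and 0.027. PIWIL2 lost its call in 5 of 15 alternatives and TEX14 in 6 of 15. HORMAD2, PIWIL2 and TEX14 passed the filter on low counts through the control tumors alone. TDRKH was lower at -0.37 ± 0.10 (SE), with an edgeR adjusted p of 0.0049 that was 0.11 when library totals replaced TMM. With no filter, where 53.3% of 17211 genes were called, TDRD12 was also called higher (edgeR adjusted p = 0.021), from 16 counts in control tumors and 2 in control cells, a ratio with a 95% counting interval of 1.5-fold to 57.3-fold. Markers of some other cell types moved with this comparison, and so did the epithelial markers, at 3220 to 3560 CPM in control tumors and 1950 to 2090 in control cells. The keratinocyte and hair markers overlapped, at 34.3 to 54.3 CPM in control tumors and 30.8 to 42.2 in control cells. The endothelial markers summed to 15.5 to 23.3 CPM in control tumors and 13.5 to 15.3 in control cells. The fibroblast markers given above were above the floor for 6 of 6 genes in control tumors and 2 of 6 in control cells. The 4 skeletal muscle markers summed to 74.9 to 241 CPM in control tumors, all 4 above the floor, and to 0.132 to 0.287 in control cells, with 0 above it and MYH2 at 0. The 5 leukocyte markers summed to 8.0 to 22.4 CPM in control tumors, 3 above the floor, and to 0.994 to 1.94 in control cells, 1 above it. The part of these markers in the differences was not tested.

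In DDX4-null tumors against DDX4-null cells, 69.8% of 13277 genes were called, 34.6% higher and 35.3% lower, and so were 2 of the 9 tested genes of the set. SYCP2 rose by 1.64 ± 0.29 (SE) on the log2 scale, at 5.05 ± 1.87 CPM in DDX4-null tumors and 1.65 ± 0.428 in DDX4-null cells (SD, n = 4 each), with an edgeR adjusted p of 0.00019. PLD6 fell by 1.88 ± 0.11 (SE) on the log2 scale, to 10.3 ± 0.724 CPM in DDX4-null tumors, against 38.6 ± 3.06 in DDX4-null cells (SD, n = 4 each). Its edgeR adjusted p was 7.9e-09. HORMAD2 had 1 count in DDX4-null tumors and 5 in DDX4-null cells, which is too few to compare. Here the skeletal muscle markers summed to 5.61 to 235 CPM in DDX4-null tumors and 0.364 to 0.828 in DDX4-null cells, and their part was not tested. The leukocyte markers summed to 6.92 to 31.9 CPM in DDX4-null tumors and 1.07 to 1.71 in DDX4-null cells, and their part was not tested either. The 4 pairwise comparisons share libraries with each other, so their results for a gene are not independent.

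**Figure D5:**
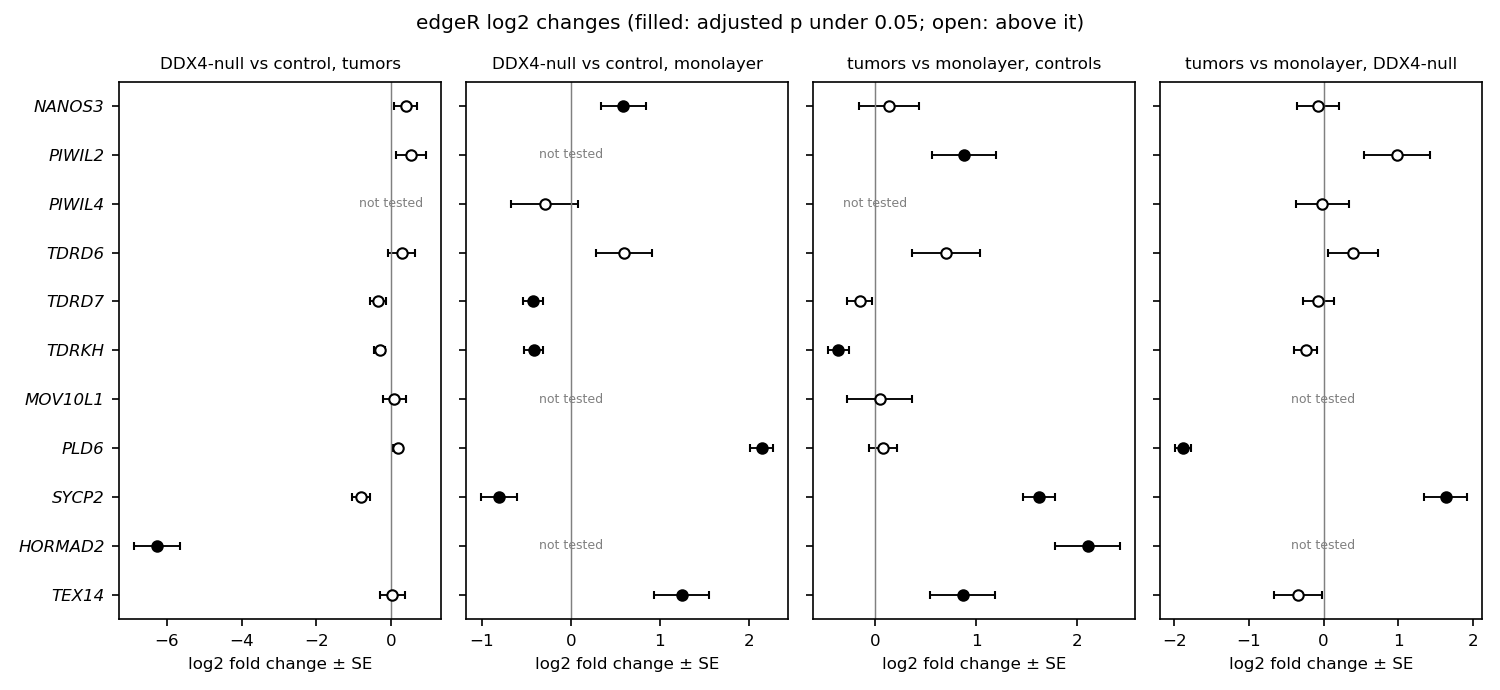
Log2 fold change (± SE) of the 11 genes in the 4 pairwise comparisons, with filled points for an edgeR adjusted p under 0.05, open points for one above it, and different x ranges between panels. HORMAD2 in tumors is at -6.26, PLD6 in monolayer at 2.15, and SYCP2 is at -0.80 and -0.81 in both genotype panels, open in tumors and filled in monolayer.

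Other genes of the germ line were counted from lists that do not overlap the set. Of 23 other piRNA and germ granule genes, 10 were tested in monolayer, of which 5 rose and 3 fell, beside 67.3% called over all genes. The list's median log2 change was 0.36, against 0.021 over all genes tested. SPOCD1, which in mouse directs piRNA-guided DNA methylation, rose to 23.8 ± 1.43 CPM in DDX4-null cells, against 4.09 ± 0.269 in control cells (SD, n = 4 each), a log2 change of 2.54 ± 0.12 (SE). MYBL1, the transcription factor A-MYB that drives piRNA precursor genes in mouse spermatocytes, rose by 1.83 ± 0.16 (SE) on the log2 scale. SND1, a Tudor-domain nuclease found in most cells, fell by 1.10 ± 0.091 (SE) on the log2 scale. TEX15, named after its values were seen, had 250 counts in DDX4-null cells and 0 in control cells. TEX15 had 1 count in DDX4-null tumors and 1 in control tumors. In tumors 0 of the 9 tested genes of this list passed in edgeR and 0 in DESeq2, and 1 had an unadjusted p under 0.05.

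Of 38 other meiosis genes, 14 were tested in monolayer, of which 7 rose and 5 fell, beside 67.3% called over all genes. The list's median log2 change was 0.48, although the 3 genes with the smallest p that reached 1 CPM all fell. C14orf39, a central element protein of the synaptonemal complex also called SIX6OS1, had 4 counts in DDX4-null cells and 114 in control cells. It held 337 counts in DDX4-null tumors and 279 in control tumors, where it was not called. REC8, the meiotic cohesin subunit, averaged 2.12 ± 0.302 CPM in DDX4-null cells and 14.9 ± 2.33 in control cells (SD, n = 4 each), a log2 change of -2.80 ± 0.16 (SE). In tumors REC8 averaged 17.6 ± 5.88 CPM in DDX4-null libraries and 16.5 ± 3.85 in controls (SD, n = 4 each). SUN1, a nuclear envelope protein that moves meiotic chromosomes and is found in most cells, fell by 1.41 ± 0.10 (SE) on the log2 scale in monolayer. In tumors 0 of the 14 tested genes of this list passed in edgeR and 1 in DESeq2, and 4 had an unadjusted p under 0.05.

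Of 16 germ cell specification genes, 7 were tested in monolayer, of which 1 rose and 3 fell, beside 67.3% called over all genes. The list's median log2 change was -0.44. SALL4, a zinc finger factor of stem and germ cells, averaged 0.505 ± 0.0996 CPM in DDX4-null cells and 6.08 ± 1.48 in control cells (SD, n = 4 each), a log2 change of -3.57 ± 0.24 (SE). In tumors SALL4 averaged 5.10 ± 1.43 CPM in DDX4-null libraries and 8.76 ± 1.78 in controls (SD, n = 4 each), which did not pass (edgeR adjusted p = 0.099). PUM2, an RNA-binding partner of NANOS proteins, was higher at 0.27 ± 0.098 (SE) on the log2 scale in monolayer. In tumors 0 of the 7 tested genes of this list passed in edgeR and 2 in DESeq2, and 3 had an unadjusted p under 0.05.

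Of 21 single-copy cancer-testis genes, 15 were tested in monolayer, of which 13 rose and 1 fell, beside 35.0% higher and 32.3% lower over all genes. The list's median log2 change was 0.90, against 0.021 over all genes tested. The list also holds cell division genes such as KIF2C, TTK, NUF2, KNL1, CEP55 and PBK. PRAME rose to 85.8 ± 7.88 CPM in DDX4-null cells, against 28.3 ± 3.92 in control cells (SD, n = 4 each). OIP5, a centromere protein of the MIS18 complex, rose by 1.61 ± 0.13 (SE) on the log2 scale. CCDC110 had 173 counts in DDX4-null cells and 4 in control cells. In tumors 13 were tested, and ATAD2, a bromodomain ATPase, was the 1 called, at 65.2 ± 1.13 CPM in DDX4-null tumors and 84.0 ± 7.98 in control tumors (SD, n = 4 each). Its change was -0.37 ± 0.083 (SE) with an edgeR adjusted p of 0.047, while in monolayer ATAD2 was called higher, at 0.90 ± 0.098 (SE).

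Of 14 genes known to keep germ line genes silent in somatic cells, all were tested in monolayer, and 6 rose and 5 fell, beside 67.3% called over all genes. The list's median log2 change was 0.094. DNMT1, the maintenance DNA methyltransferase, rose by 0.88 ± 0.093 (SE) on the log2 scale. MGA, the scaffold of the repressive complex that binds E-boxes of germ line genes, fell by 0.87 ± 0.10 (SE), and SMCHD1 fell by 0.64 ± 0.12 (SE). In tumors 0 of the 14 passed in edgeR and 1 in DESeq2, 3 had an unadjusted p under 0.05, and MGA stood at -0.40 ± 0.14 (SE) with an edgeR adjusted p of 0.14.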

How the data were processed

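The deposited values are raw counts of reads per Ensembl gene, made by the authors and taken unchanged. Per the labels' protocols, a kit that keeps strand was used to make mRNA libraries. Trimmomatic 0.39, STAR 2.7.10a and featureCounts 2.0.3 were used with GRCh37, per the submitters' processing notes. No source used here names the strand setting, the annotation or a step against host reads. Symbols came from a table of gene names for 19446 IDs and from GENCODE v29 for 65 more.

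Every gene was tested with edgeR 4.0.16 (quasi-likelihood F test, R 4.3.3) after TMM scaling and filterByExpr, and called at a Benjamini-Hochberg adjusted p under 0.05. Each SE of a log2 change was worked back from the test, as the size of the change divided by the square root of F. It is not a separately fitted standard error. Each comparison used its own 8 libraries, and the difference of genotype effects used all 16. The members and lists were chosen with earlier results of these data known. From each list, up to 3 called genes with the smallest p per genotype comparison were named, if the higher group averaged 1 CPM or more. TPTE, UHRF1 and PECAM1 were not analysed here. Some single-gene results are not printed, while the counts include them. Exon lengths, gene order and overlaps came from GENCODE v29 on GRCh38, by Ensembl ID.

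Alternatives were DESeq2 1.42.0, its size factors, library totals, 2 other filters, the replicate number as a block, one model of 16 libraries, centring by chromosome and leaving out each library. The neighbouring genes were added after seeing the data. The steps were tested on simulated data with 200 changed genes of 13603. Those with a log2 change of 1 were recovered in 87.7% of cases in tumors and 81.5% in monolayer. Of the calls, 4.38% and 6.54% were false. The simulation drew 1 level and 1 spread per gene from all 16 libraries, and the real monolayer comparison called far more genes. These rates therefore check the steps and do not describe recovery or false calls in the real comparisons. Counts of every replicate pair differed by more than sampling noise. Reads had no molecular identifiers, so intervals and floors reflect counting error alone.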

Additional observations from a re-analysis of the deposited data

Results flagged for a closer look

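PIWIL2 was flagged in 2 groups because 1 library stood far from the other 3. It had 1.06 CPM in control tumor replicate 2, where the other control tumors had 0.701 to 0.730, and 1.00 CPM in DDX4-null cell replicate 2, where the others had 0.417 to 0.485. Chance flags about 1 in 20 groups, and 42 sets of 4 libraries were looked at.

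The DDX4-null effect differed between tumors and monolayer for 3 of the 11 tested genes of the set by edgeR's interaction test, beside 52.8% called over all genes. For PLD6 the difference, tumors minus monolayer, was -1.97 ± 0.17 (SE) on the log2 scale, with an adjusted p of 1.1e-08. For HORMAD2 it was -3.81 ± 1.19 (SE), with an adjusted p of 0.011. That value rests on 1 count in DDX4-null tumors and 5 in DDX4-null cells, so its size depends on how small counts are handled. Without DDX4-null cell replicate 4, which held 3 of the 5 counts, it was -3.10 with an adjusted p of 0.096. For TEX14 the difference was -1.21 ± 0.44 (SE), with an adjusted p of 0.027 that was above 0.05 in 8 of 22 alternatives.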

How the results depend on the processing

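In monolayer 6 of 8 tested genes of the set were called, beside 8756 of 13006 over all genes. With the replicate block 5 of 8 were called, without NANOS3, beside 8883 of 13006. With a minimum of 1 CPM 4 of 6 were called, beside 8452 of 12526. With no filter 7 of 25 were called, beside 9680 of 17068. In the model of all 16 libraries 7 of 11 were called, beside 8742 of 13603. Correlations of same-numbered libraries ran from -0.160 to 0.274, which does not settle whether the replicate numbers pair the samples. The block changed no other call of the set in the pairwise comparisons. In tumors 1 gene was called, 2 with DESeq2 and 2 in the model of all 16 libraries, with 1 to 2 when a library was left out. Over all genes, edgeR called 270 in tumors (127 higher and 143 lower), DESeq2 called 880, the replicate block 425 and the model of all 16 libraries 808, while library totals gave 97 higher and 168 lower. For control tumors against control cells, 5 of 10 tested genes of the set were called, beside 8340 of 12858 over all genes. It was 3 of 10 with DESeq2, beside 8349 of 12858, and 3 of 7 with a minimum of 1 CPM, beside 8104 of 12400. With a library left out, 3 to 6 were called. There the median log2 change of all genes was 0.19 with library totals and 0.020 with TMM, and library totals gave 5563 genes higher and 2872 lower, against 4354 and 3986 with TMM. For DDX4-null tumors against DDX4-null cells, 2 of 9 tested genes of the set were called, beside 9271 of 13277 over all genes. In the model of all 16 libraries 4 of 11 were called, beside 9859 of 13603. With a library left out, 2 to 4 were called.

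Directions turned for these values, none of which passed the main test. With library totals the log2 differences were -0.012 for DDX4 and -0.022 for TEX14 in tumors, 0.013 for TDRD7 in control tumors against control cells, and 0.0097 for PIWIL4 in DDX4-null tumors against DDX4-null cells. For the genotype effect in tumors minus that in monolayer, library totals gave -0.11 for SYCP2, -0.030 for PIWIL2, -0.050 for TDRD7 and -0.014 for TDRKH, and the replicate block gave -0.014 for SYCP2. With centring by chromosome, values in control tumors against control cells were -0.12 for NANOS3, 0.0072 for TDRD7, -0.095 for MOV10L1 and -0.12 for PLD6, and TDRD7 stood at 0.32 in DDX4-null tumors against DDX4-null cells. With 1 library left out, ranges in tumors were -0.047 to 0.12 for DDX4, -0.0032 to 0.47 for TDRD6, -0.12 to 0.25 for MOV10L1 and -0.23 to 0.19 for TEX14. In monolayer PIWIL4 ran from -0.58 to 0.21. In control tumors against control cells the ranges were -0.13 to 0.33 for NANOS3, -0.17 to 0.21 for MOV10L1 and -0.038 to 0.16 for PLD6. In DDX4-null tumors against DDX4-null cells they were -0.19 to 0.095 for NANOS3, -0.26 to 0.20 for PIWIL4 and -0.26 to 0.10 for TDRD7. For the difference of genotype effects they were -0.25 to 0.19 for SYCP2, -0.39 to 0.050 for NANOS3, -0.34 to 0.48 for PIWIL2 and -0.11 to 0.26 for TDRD7. The cause was not tested. The 22 genes above the floor in no group had too few counts for the main filter in every comparison.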
